A study of Mus musculus with 96 samples.

Results

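Very wide GATA6 binding regions were chosen by width alone, as the regions of the deposited table whose end minus start reached 1800 bp. This held for 723 of 42403 regions (1.71%), which covered 1.63 of 26.7 Mb, or 6.11% of the bound sequence. Their width ran from 1801 to 5380 bp with a median of 2104 bp, against a median of 524 bp over all regions. Of the 723 regions, 53 spanned 3000 bp or more and 8 spanned 4000 bp or more. Since width came from GATA6 peak calls, the GATA6 signal of these regions, their width and their GATA6 dynamics class describe how they were selected and were not tested. Whether such a region is a single stretch of binding or adjacent peaks of several samplings that were joined is not given in the sources used here, so that width, summit position and matches per region are those of the deposited interval.

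Binding was measured by ChIP-seq, which counts the DNA fragments pulled down with an antibody against each factor. The ES cells were of the KH2 line (C57BL/6 x 129/Sv) and carried a doxycycline (Dox)-inducible Gata6 cassette, as did the cells collected without Dox. GATA6, SOX17, OCT4, SOX2, ESRRB and input chromatin were profiled before Dox and at 5 samplings in 1 µg/mL Dox, namely 8 h, 16 h, day 1, day 2 and day 4, which are called the Dox course below. XEN cells, a CD1 line (X10) of extraembryonic endoderm that received no Dox, were profiled for the same targets but ESRRB, and cells under Oct4 siRNA (siOCT4) or control siRNA (siCTL) with 1 µg/mL Dox for 48 h were profiled for GATA6 and SOX17. The inducible line was used as 2 clones, and the siRNA experiment in 1 of them. Feeder fibroblasts were adsorbed before fixation, and a residue of their chromatin was not measured here. GATA6 made from the cassette and from the endogenous gene cannot be told apart. Of 47 labelled conditions, 45 had values that were used here. By the labels, 39 of these had 2 libraries, 4 had 3, and GATA6 before Dox and OCT4 in XEN cells had 1. Input of the siRNA cells was labelled with 2 libraries for each siRNA but had no values here. Changes after the knock-down thus have no input beside them. Each of the 45 conditions had 1 pooled value per region. No spread between replicates and no test over samples could therefore be had, and differences are given as sizes beside those of all regions. Depth, read from the smallest steps of the values, was 5.42 to 69.4 M reads in the 37 conditions where it could be resolved, with a median of 15.3 M. The other 8 included SOX17, OCT4, SOX2, ESRRB and input before Dox. In these, 8.03 to 24.3% of checked values fell on steps that 2 libraries would give. How those columns were built is not known, and changes from before Dox rest on them. For GATA6 and SOX2 on day 4 and input in XEN cells, 3 libraries were labelled. Their values fell on steps of 2, so that use of all 3 cannot be told.

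GATA6 is a zinc-finger transcription factor (TF) that recognises the word GATA in DNA and drives ES cells towards the primitive endoderm (PrE), the early embryonic tissue that later lines the yolk sac. It acts there with GATA4 and with SOX17, an HMG-box TF, while OCT4, SOX2 and ESRRB are pluripotency TFs that maintain ES cells. PrE cells secrete the laminins and collagen IV of a thick basement membrane. Regulatory elements that gather several TF sites over a long stretch are common around genes of cell identity.

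The sequence under these regions is shown for 10 of them, as 43 bases of mm10 around the best GATA6 match, written 5′ to 3′ on the strand of the match, with the 13 matched bases in capitals. They were picked to span the loci described further on: the broadest stretches, TF and basement membrane genes of the PrE, and a pluripotency and a trophoblast gene.
Widest region, chr3:101167267-101167309 (+): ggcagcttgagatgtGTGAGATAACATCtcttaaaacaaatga
Next in width, chr14:72844135-72844177 (+): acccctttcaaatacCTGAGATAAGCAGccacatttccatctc
Most GATA6 matches, chr5:119588429-119588471 (-): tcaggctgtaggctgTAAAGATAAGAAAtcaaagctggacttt
Gata4 intron, chr14:63231342-63231384 (+): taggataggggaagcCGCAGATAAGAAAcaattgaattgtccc
Sox17 downstream, chr1:4474663-4474705 (-): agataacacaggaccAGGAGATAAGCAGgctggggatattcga
Lama1 upstream, chr17:67685606-67685648 (+): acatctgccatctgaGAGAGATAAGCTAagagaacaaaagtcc
Lamb1 upstream, chr12:31229378-31229420 (-): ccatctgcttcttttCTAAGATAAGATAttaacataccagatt
Lamc1 intron, chr1:153274571-153274613 (+): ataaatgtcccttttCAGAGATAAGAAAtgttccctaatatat
Gata2 upstream, chr6:88190783-88190825 (+): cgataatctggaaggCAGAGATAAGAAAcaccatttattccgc
Klf4 upstream, chr4:55541244-55541286 (+): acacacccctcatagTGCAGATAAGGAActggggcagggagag
All 10 hold the word AGATAA inside the match, and the Lamc1 and Gata2 matches are the same 13 bases, with a score of 15.0. Over the 723 regions the best match carried AGATAAG, starting at its position 4, in 447 (61.8%), against 37.8% of the 38052 regions of the table with a match. The best match is picked from all matches of a region. Longer regions hold more matches, so that this share and the score of the best match depend on width. A match is a likeness to the motif and not evidence of contact.

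Every very wide region had at least 1 GATA6 match, against 89.7% of all regions, and the mean was 7.78 matches per region against 2.55. Per kb the order turned around, with 3.46 matches in very wide regions and 4.05 in all regions. Over whole regions the word AGATAA, counted on both strands, was at 1.36 against 1.74 per kb. The best match had a median score of 12.2, against 10.2 over all regions and 11.7 in the 2465 regions of 1200 to under 1800 bp. SOX17 matches were at 1.98 against 2.22 per kb, OCT:SOX matches at 2.43 against 2.64 per kb, and ESRRB matches at 0.805 against 0.798 per kb. GATA6, SOX17 and OCT:SOX matches were thus less dense in very wide regions, and ESRRB matches about as dense as in all regions. In windows of equal size, 301 bp around the summit and counting both strands, AGATAA was found in 67.5% of very wide regions, 64.3% of those of 1200 to under 1800 bp and 58.1% of all. TGATAA was found in 36.1% of the windows against 34.5% of all, and ACAAT, the core of SOX sites, in 59.6% against 55.4%. ATGCAAAT, the octamer bound by OCT factors, was found in 3.60% against 3.73%, and AAGGTCA, which ESRRB recognises, in 13.7% against 9.75%. In regions of 1200 to under 1800 bp the shares were 36.8% for TGATAA, 56.5% for ACAAT, 3.85% for ATGCAAAT and 12.3% for AAGGTCA. Base composition was close to that of all regions, with a median GC content of 45.2% in both sets, 10.9 against 9.68 CpG per kb and 18.4% against 14.6% of bases masked as repeats.

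The summit, the position of strongest GATA6 signal, was often off centre. It lay a median of 396.5 bp from the middle of very wide regions, or 35.5% of the way from the middle to an end, against 16.7% of the way in all regions. In 211 regions (29.2%) the summit fell closer to an end than to the middle, against 5.07% of all regions. The best GATA6 match was within 100 bp of the summit in 253 of 723 regions (35.0%), against 69.8% of all regions with a match, and its median distance to the summit was 398 bp against 51 bp. In the 201 bp around the summit, GATAA on either strand occurred at least once in 81.7% of very wide regions and at least 3 times in 15.8%, against 75.6% and 9.57% of all regions. Regions of 1200 to under 1800 bp were close to the very wide ones, at 81.7% and 13.9%.

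Summit sequences show a pair of contrasting cases, on the + strand of mm10 with each GATAA or its reverse complement TTATC in capitals. One is a region in an intron annotated to Fgfr2, chr7:131696453-131698382, whose summit lies on a tandem repeat. Its summit window has 14 such words, the highest count in very wide regions and also in those of 1200 to under 1800 bp. The other is the Gata4 intron region, chr14:63230600-63233072, with 4 words spread out.
Fgfr2 summit, chr7:131697314-131697514: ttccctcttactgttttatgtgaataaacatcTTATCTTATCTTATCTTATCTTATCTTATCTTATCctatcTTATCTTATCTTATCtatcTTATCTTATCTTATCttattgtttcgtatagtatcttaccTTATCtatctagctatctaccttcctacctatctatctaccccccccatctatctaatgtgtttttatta
Gata4 summit, chr14:63231222-63231422: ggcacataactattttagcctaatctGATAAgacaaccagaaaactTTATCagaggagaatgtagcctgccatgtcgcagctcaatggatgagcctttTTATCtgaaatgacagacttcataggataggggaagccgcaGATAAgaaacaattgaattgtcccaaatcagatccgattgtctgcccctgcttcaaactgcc
GATA6 at the repeat measured 33.1, 17.1, 8.58, 5.79 and 3.47 RPM over the Dox course and 3.57 RPM in XEN cells, so that it was highest at the first sampling and fell from there. At the Gata4 intron GATA6 measured 17.8, 27.1, 23.5, 28.7 and 38.2 RPM over the Dox course and 54.1 RPM in XEN cells, a rise to the end of the course. How reads in the tandem repeat were aligned was not tested.

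Very wide regions were found on 20 chromosomes, with 14 to 59 of them per chromosome, or 1.10 to 2.36% of a chromosome's regions. A transcription start site lay inside 78 (10.8%), against 4.59% of all regions and 7.79% of those of 1200 to under 1800 bp. For the rest the summit was in an intron in 269, in an exon in 15 and between genes in 361. These were 37.2, 2.07 and 49.9% of the very wide regions, against 44.98, 2.93 and 47.5% of all regions. The median distance of the summit to the nearest start of a protein-coding gene was 24.9 kb against 31.1 kb. Other GATA6 regions were close by, with a median gap to the nearest region of 3.06 kb against 8.02 kb, and 62.0% had a neighbour within 5 kb against 39.5%. Other very wide regions were farther, with a median gap of 495 kb and 50 regions within 5 kb of another.

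The limit of 1800 bp marked no gap in the widths. The 3 narrowest of the very wide regions were another Gata4 intron region of 1801 bp (chr14:63264284-63266085), an intron region of Commd7 of 1801 bp (chr2:153624791-153626592) and a region of 1802 bp that lies 9.12 kb from the start of Bub1b (chr2:118587755-118589557). Their GATA6 signal at 8 h was 13.2, 41.2 and 30.1 RPM and their SOX17 signal at day 4 was 31.1, 17.7 and 5.08 RPM. The 3 regions just below the limit, all within 3 bp of it, had 6.74, 0.846 and 6.01 RPM of GATA6 at 8 h and 18.5, 22.0 and 14.6 RPM of SOX17 at day 4.

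A wide region collects more reads because it is long, so signal was divided by width. GATA6 at 8 h reached a median of 13.9 RPM against 1.49 RPM over all regions, and a median of 6.49 RPM per kb against 3.27 RPM per kb. The ratio was thus 9.30 in RPM and 1.99 per kb. Among the 723 regions, GATA6 at 8 h ran from 0.276 to 27.9 RPM per kb. Against the 2465 regions of 1200 to under 1800 bp the ratio was 1.13, and against the 11299 narrower regions of the Early&Constant class, bound by GATA6 early and throughout, it was 1.63. By chromosome, the ratio to all regions ran from 1.51 to 2.53 over 20 chromosomes. Chromosomes are not replicates, and these ratios describe the selected regions.

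The median GATA6 signal of the very wide regions was highest at 8 h, over classes with different courses. It was 0.755 RPM per kb before Dox, 6.49, 6.25, 4.91, 4.68 and 5.45 over the Dox course and 5.44 in XEN cells, and that of all regions 0.835 before Dox, 3.27, 2.91, 2.55, 2.23 and 2.69 over the course and 2.78 in XEN cells. Before Dox the order of the 2 sets turned with the treatment of the lowest values. No column of the table holds a 0, and GATA6 before Dox came in whole multiples of 0.163 RPM, with 9705 regions at that lowest value, among them 48.0% of the regions under 300 bp and 3 very wide regions. Such a floor weighs more per kb in a narrow region. With the lowest value of each column taken off first, an alternative chosen after seeing the data, the ratio of very wide to all regions before Dox moved from 0.904 to 1.29, and that of input from 1.02 to 1.29, while GATA6 at 8 h moved from 1.99 to 2.05. By the deposited GATA6 dynamics classes, the median went from 6.59 RPM per kb at 8 h to 1.53 on day 4 and 0.924 in XEN cells in the Transient regions. It went from 0.795 to 6.96 and 9.30 in the Late regions, and from 6.99 to 6.18 and 6.39 in the Early&Constant regions.

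**Figure D1:**
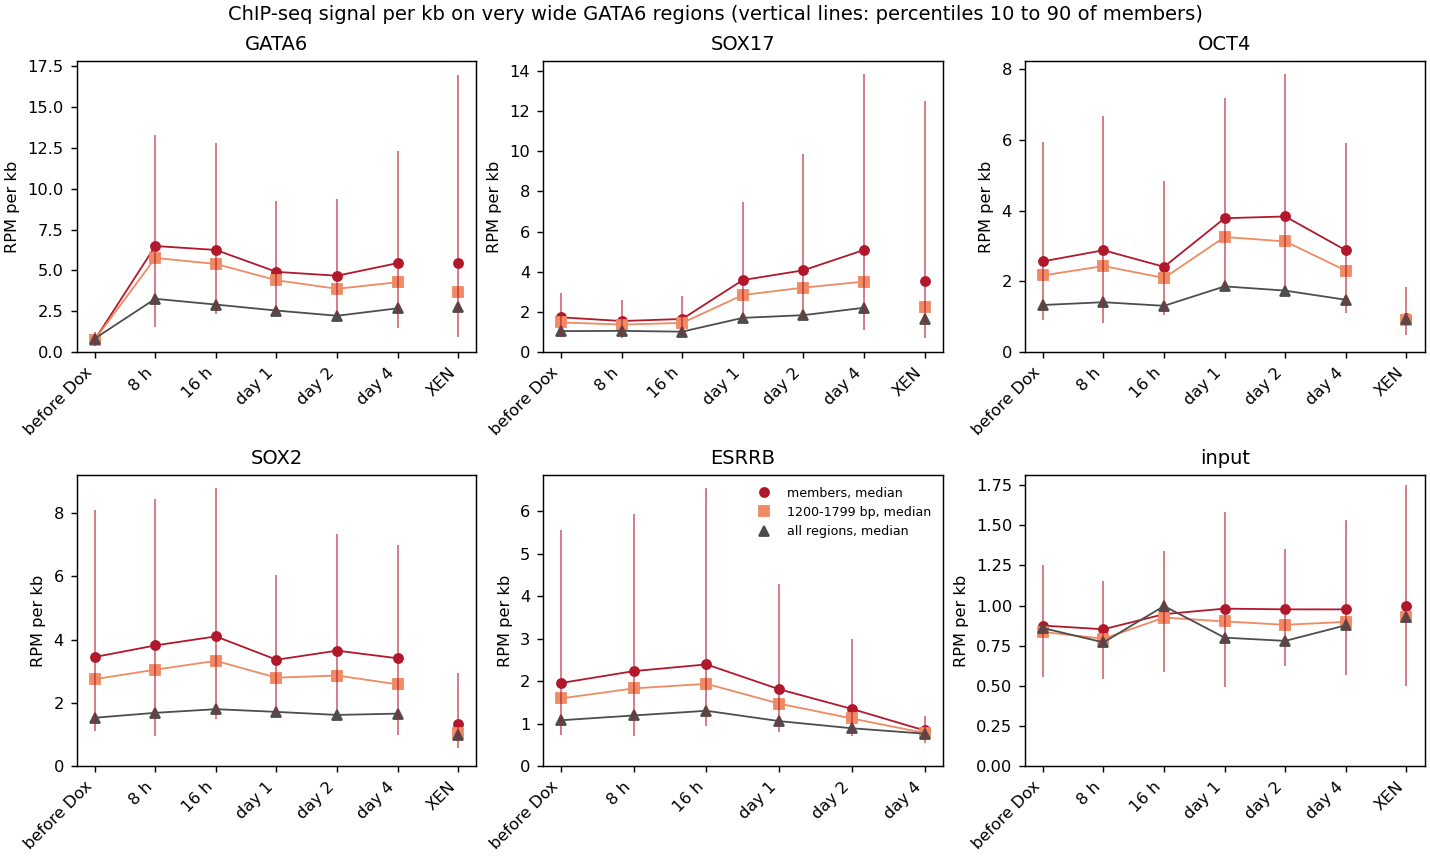
Median ChIP-seq signal in RPM per kb by time in Dox and in XEN cells for GATA6, SOX17, OCT4, SOX2, ESRRB and input, in the 723 very wide regions (red circles, with lines from percentile 10 to 90 of the regions), the 2465 regions of 1200 to under 1800 bp (orange squares) and all 42403 regions (grey triangles). SOX17 in very wide regions climbs from 1.65 at 16 h to 5.09 at day 4, OCT4 peaks at 3.84 at day 2, ESRRB falls to 0.845 at day 4, and input stays between 0.853 and 0.998.

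SOX17 rose on very wide regions from day 1. Its median was 1.74 RPM per kb before Dox and 1.55 and 1.65 at 8 and 16 h, then 3.59, 4.08 and 5.09 on days 1, 2 and 4, with 3.53 in XEN cells. All regions went from 1.05 RPM per kb before Dox to 2.21 on day 4. The ratio at day 4 was 2.30 against all regions, 1.45 against regions of 1200 to under 1800 bp and 1.42 against narrower Early&Constant regions. In XEN cells it was 2.11 against all regions. Before Dox the SOX17 ratio was 1.65 against all regions and 1.17 against regions of 1200 to under 1800 bp. Those of input were 1.02 and 1.05. With the lowest value of each column taken off, the ratios to all regions were 1.89 for SOX17 and 1.29 for input. What the SOX17 signal before Dox stands for was not tested.

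Before GATA6 was induced, the pluripotency TFs stood higher on very wide regions than on all regions, and less so against regions of the next width. OCT4 was at a median of 2.57 RPM per kb before Dox against 1.34 over all regions (ratio 1.92), SOX2 at 3.45 against 1.53 (ratio 2.25) and ESRRB at 1.96 against 1.08 (ratio 1.81). Against regions of 1200 to under 1800 bp the ratios were 1.18, 1.25 and 1.23. Among regions with pluripotency TFs called before Dox, the very wide ones were below the narrower ones for OCT4 (ratio 0.820) and SOX2 (0.882) and above them for ESRRB (1.17). OCT4 then stood at 3.79 on day 1, 3.84 on day 2 (ratio 2.20) and 2.88 on day 4. The median of SOX2 was 3.65 on day 2 and 3.41 on day 4, over classes that went opposite ways. From before Dox to day 4 SOX2 went from 4.51 to 2.83 RPM per kb in very wide regions with pluripotency TFs before Dox, and from 1.34 to 4.87 in those where such TFs were called only after induction. ESRRB dropped to 1.35 on day 2 and 0.845 on day 4, where all regions were at 0.769. In XEN cells OCT4 was at 0.974 against 0.933 RPM per kb and SOX2 at 1.33 against 1.00, beside an input of 0.998 against 0.927. Input in the ES cells was between 0.853 and 0.981 RPM per kb on very wide regions, with ratios to all regions from 0.949 to 1.25.

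Signal per kb of GATA6 at 8 h rose with width up to 3000 bp, without a jump at 1800 bp. Its medians were 1.63 RPM per kb in regions under 300 bp, 2.86 from 300 to under 600 bp, 4.86 from 900 to under 1200 bp, 6.14 from 1500 to under 1800 bp, 6.30 from 1800 to under 2200 bp, 7.21 from 2200 to under 3000 bp and 6.98 from 3000 bp. OCT4 at day 2 went from 1.21 under 300 bp to 4.90 RPM per kb from 3000 bp, and SOX17 at day 4 from 2.03 to 5.96, with a dip to 1.95 from 300 to under 600 bp. In XEN cells the relation was not steady. GATA6 there had its lowest median, 2.38 RPM per kb, from 300 to under 600 bp, against 3.95 under 300 bp and 5.17 from 3000 bp. SOX17 in XEN cells was at 1.94 RPM per kb under 300 bp, 4.08 from 2200 to under 3000 bp and 3.06 from 3000 bp. Within the very wide regions, width and signal per kb were nearly unrelated, with Spearman's rho over the 723 regions of 0.06 for GATA6 at 8 h, 0.04 for SOX17 at day 4 and 0.02 for OCT4 before Dox. These correlations run over regions that share libraries and depth, and describe the table only.

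**Figure D2:**
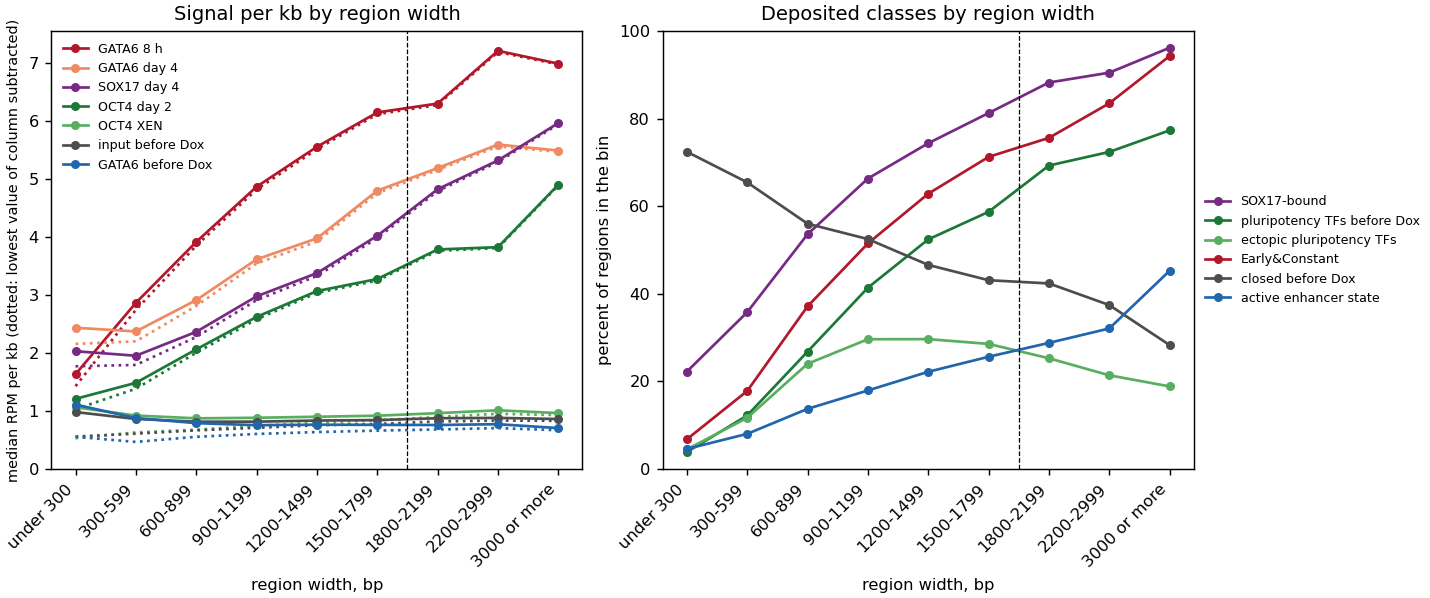
Left, median signal in RPM per kb in 9 bins of region width, with dotted lines after taking off the lowest value of each column; right, percent of regions in each bin that belong to a deposited class. The dashed line marks 1800 bp. GATA6 at 8 h rises from 1.63 to 7.21 RPM per kb, input before Dox lies between 0.814 and 0.981, and the SOX17-bound share goes from 22.2% to 96.2%.

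Levels of different factors went together among the very wide regions. Over the 723 regions, Spearman's rho was 0.93 between GATA6 and SOX17 per kb at day 4, 0.95 between OCT4 and SOX2 per kb before Dox, and 0.72 between GATA6 at 8 h and OCT4 before Dox. GATA6 at 8 h and at day 4, by contrast, had a rho of -0.16, so that the regions strongest at first were not those strongest at the end, whereas day 4 and XEN cells had 0.87. Input before Dox also went with GATA6 at 8 h (rho 0.42), and its part in these relations was not tested. The number of GATA6 matches per kb and GATA6 signal at 8 h had a rho of 0.01.

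The deposited classes of the very wide regions were unlike those of the table. By GATA6 dynamics, 576 (79.7%) were Early&Constant, against 28.0% of all regions, 106 (14.7%) were Transient and 41 (5.67%) were Late. SOX17 bound 648 (89.6%, Wilson 95% interval 87.2 to 91.6), against 44.5% of all regions and 76.5% of those of 1200 to under 1800 bp. A pluripotency TF was called before Dox in 513 (71.0%, interval 67.5 to 74.1), against 20.8% and 54.4%. In another 170 (23.5%) pluripotency TFs were called only after GATA6 induction, the ectopic class. That class held 16.6% of all regions and 29.3% of those of 1200 to under 1800 bp. No pluripotency TF was called in 40 (5.53%), against 62.6% and 16.3%. A longer region offers more room for a peak of another factor, and the part of this in the shares was not tested. Chromatin before Dox was classed as closed in 287 (39.7% against 61.3%), moderate in 366 (50.6% against 31.2%) and accessible in 70 (9.68% against 7.43%). Active enhancers were the most common histone state, with 225 regions (31.1% against 11.2%). Primed enhancers (145, or 20.1% against 16.9%) and promoters (84, or 11.6% against 6.88%) were also above their shares of the table. In regions of 1200 to under 1800 bp active enhancers made up 23.2%, primed enhancers 23.9% and promoters 9.41%. Naive chromatin (120, or 16.6% against 18%) was near its share. Facultative heterochromatin (72, or 9.96% against 22.3%), poised enhancers (59, or 8.16% against 14.6%) and constitutive heterochromatin (18, or 2.49% against 10.2%) were below theirs.

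**Figure D3:**
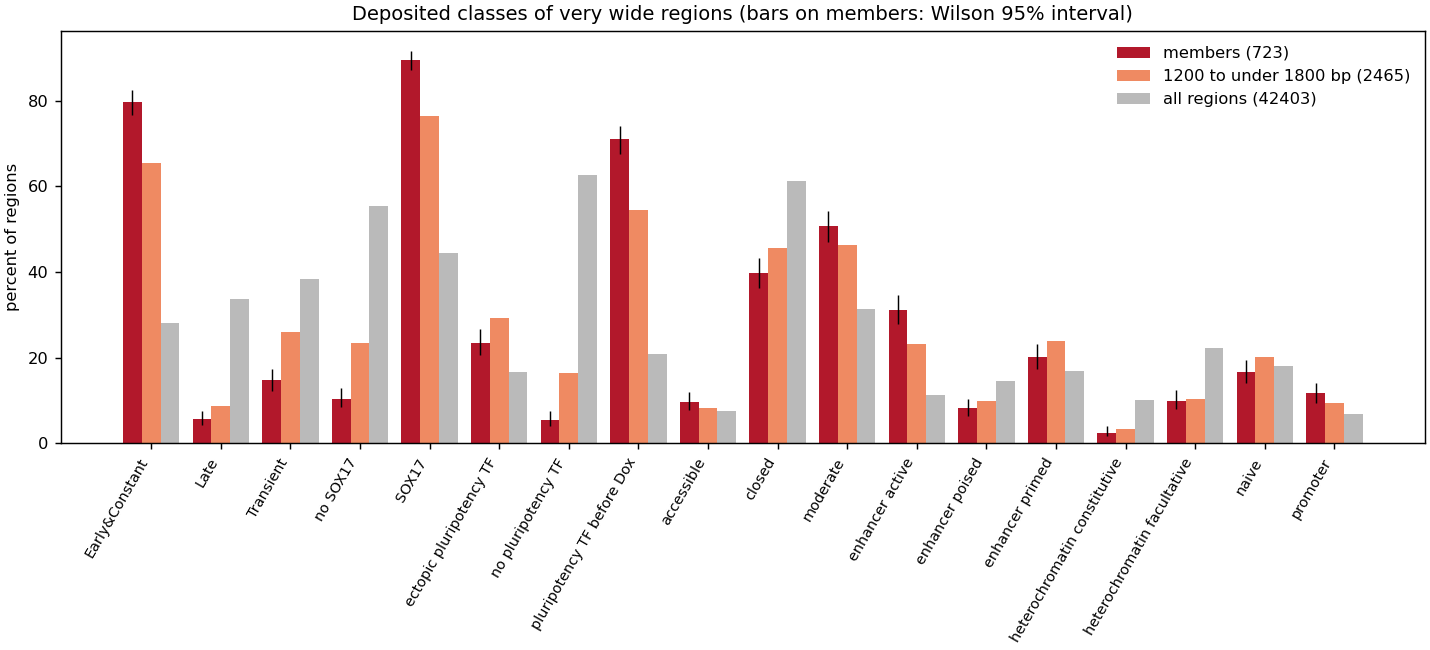
Percent of regions in each deposited class among the 723 very wide regions (red, with Wilson 95% intervals), the 2465 regions of 1200 to under 1800 bp (orange) and all 42403 regions (grey). Early&Constant, SOX17-bound and bound by pluripotency TFs before Dox are the classes where red stands highest over grey, at 79.7%, 89.6% and 71.0%.

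Crossing the classes separated the very wide regions further. SOX17 bound 558 of the 576 Early&Constant regions (96.9%) and 40 of the 41 Late regions, but 50 of the 106 Transient regions (47.2%). In the whole table these shares were 72.6%, 53.4% and 16.2%. Pluripotency TFs were on 92 Transient regions before Dox (86.8%, against 32.6% of all Transient regions) and on 2 Late regions (4.88%, against 1.76% of all Late regions). Pluripotency TFs before Dox were less frequent on closed very wide regions, with 136 of 287 (47.4%), than on moderate ones, with 314 of 366 (85.8%), or accessible ones, with 63 of 70. In the whole table the shares were 7.20%, 38.5% and 59.2%. In another 128 closed very wide regions (44.6%, against 19.6% of all closed regions) they were called only after induction, and 23 (8.01%, against 73.2%) had none.

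Changes were taken as log2 of the ratio of RPM, after adding a pseudocount of 0.193 RPM for GATA6, 0.192 for SOX17, 0.167 for OCT4, 0.195 for SOX2 and 0.164 for ESRRB, and counted when they reached 1 in size. Such a ratio depends on width through the pseudocount, which weighs more where RPM is low. From 8 h to day 4, GATA6 signal was higher in 179 very wide regions (24.8%, against 30.9% of all regions) and lower in 265 (36.7%, against 34.8%), with a median of -0.35 (range -4.01 to 4.51). Those shares are near the background of the table. From day 4 to XEN cells it was higher in 55 (7.61% against 14.4%) and lower in 93 (12.9% against 11.7%), with a median of 0.02.

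Taken over all classes, SOX17, OCT4 and ESRRB shifted more often on very wide regions than in the table. SOX17 from 8 h to day 4 was higher in 459 regions (63.5% against 44.5%) and lower in 49 (6.78% against 7.32%), with a median of 1.62 where all regions had 0.78. OCT4 from before Dox to day 2 was higher in 218 (30.2% against 14.6%) and lower in 10 (1.38% against 4.86%), with medians of 0.61 and 0.23. ESRRB over the same interval was higher in 3 (0.415% against 0.37%) and lower in 158 (21.9% against 11.4%), with medians of -0.53 and -0.28. SOX2 was higher in 98 (13.6% against 6.01%) and lower in 19 (2.63% against 6.7%), with medians of 0.06 and 0.00. The regions of 1200 to under 1800 bp were closer, with 54.9% higher for SOX17, 26.0% higher for OCT4 and 20.1% lower for ESRRB. A pseudocount dampens the changes of regions with low RPM, which are mostly narrow. One 10 times larger moved the ratio of shares from 1.43 to 2.90 for SOX17, from 2.07 to 6.03 for OCT4 and from 1.91 to 4.80 for ESRRB, and for GATA6 lower from 1.05 to 2.27.

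The 3 dynamics classes went different ways in factors other than GATA6, in very wide regions as in all regions of a class. In the 41 Late very wide regions the median change of SOX17 was 3.30, against 1.59 over all 14243 Late regions, that of OCT4 0.97 against 0.33 and that of SOX2 0.87 against 0.23. In the 106 Transient regions the medians were -0.58 for SOX17, -0.24 for OCT4, -0.55 for SOX2 and -1.04 for ESRRB, against -0.31, -0.20, -0.43 and -0.56 over all Transient regions. ESRRB was lower in 59 of the 106 (55.7%, against 23.7% of all Transient regions). Early&Constant regions lay between, at 1.86 for SOX17, 0.69 for OCT4 and -0.46 for ESRRB, against 1.42, 0.61 and -0.22 over the class. The 170 regions of the ectopic class had a median OCT4 change of 1.28 (1.09 over the class), which rests on the libraries the class was called on. SOX17 was higher in 165 of them (97.1%, against 71.2% of the class), with a median of 3.05 against 1.86. Within the SOX17-bound class the order turned around. There SOX17 was higher in 70.2% of very wide regions against 79.2% of the class, with medians of 1.87 and 1.95. It also turned for ESRRB among regions with pluripotency TFs before Dox. ESRRB was lower in 29.2% of the very wide ones against 35.5% of that class, with medians of -0.72 and -0.80.

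**Figure D4:**
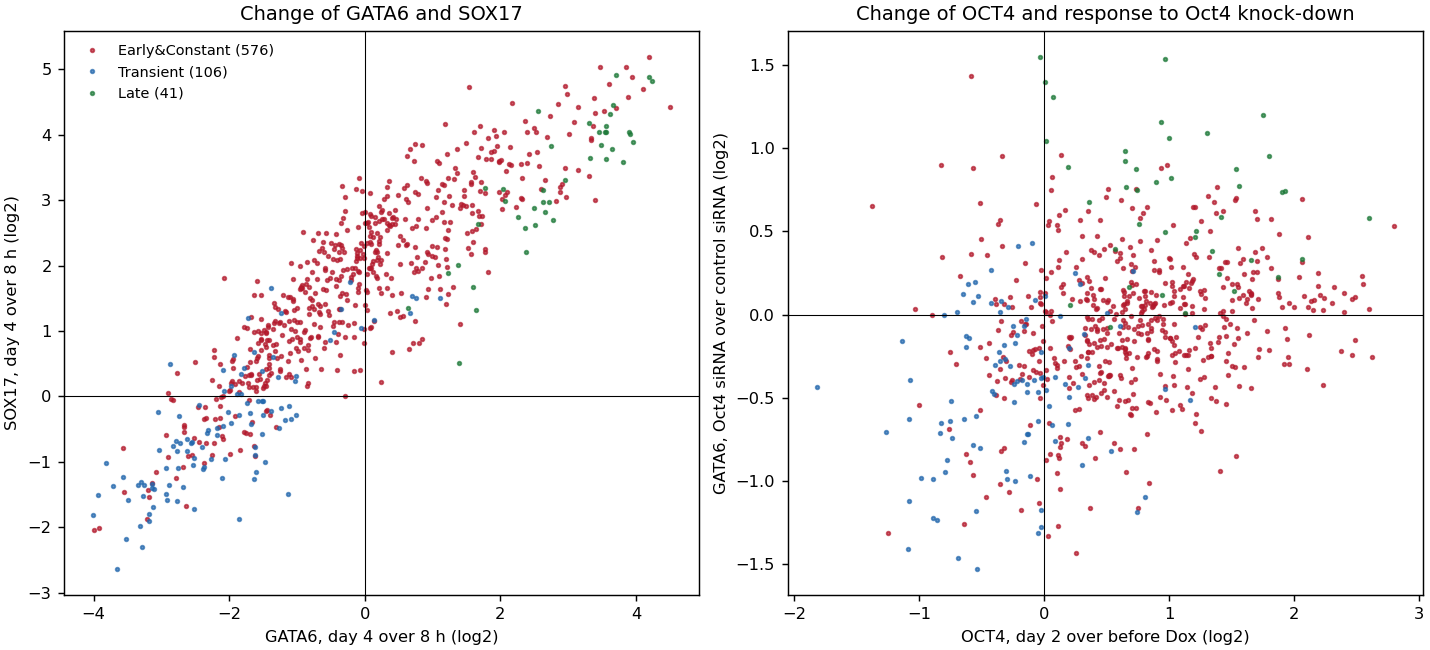
Left, log2 change of SOX17 against that of GATA6 from 8 h to day 4; right, log2 change of GATA6 between Oct4 and control siRNA against that of OCT4 from before Dox to day 2; each point is 1 of the 723 very wide regions, coloured by GATA6 dynamics class. Late regions (41) sit at the upper right of the left plot and Transient regions (106) at its lower left, with medians of 3.30 and -0.58 for SOX17.

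Genes of the PrE and of the basement membrane were often near very wide regions. Of 24 listed PrE genes, 9 had one within 50 kb of the gene body (37.5%), and of 12 basement membrane genes 8 did (66.7%). The share was 7 of 29 for pluripotency genes (24.1%), 3 of 10 for trophoblast genes, 1 of 10 for genes of the FGF and ERK pathway and 1 of 10 for mesenchyme genes, against 1144 of 21911 protein-coding genes (5.22%). A GATA6 region of any width lay within 50 kb of 23 of the 24 PrE genes and 12 of the 12 basement membrane genes, against 80.6% of protein-coding genes. Among the 9 PrE genes was Fgfr2, whose annotation spans 2961 kb with 94 GATA6 regions. Col4a1 and Col4a2 were counted through the same regions, and so were Krt8 and Krt18. No expression was used here, so that these are distances and not targets. Over the 15 very wide regions near PrE genes, those of Fgfr2 included, median changes were 1.72 for GATA6, 3.75 for SOX17, 1.68 for OCT4 and 0.18 for ESRRB. Of the 15, 14 were SOX17-bound, 7 had pluripotency TFs before Dox and 8 were of the ectopic class. The shares over all very wide regions were 89.6%, 71.0% and 23.5%.

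Among TFs of the PrE, Gata6 itself had a very wide region of 2304 bp over its start site (chr18:11051211-11053515). GATA6 there measured 2.61 RPM before Dox, 11.5, 16.8, 9.69, 10.4 and 14.3 RPM over the Dox course, with 19.7 RPM in XEN cells, so that it was bound from the first sampling on with no steady trend. Gata4, which encodes the related factor GATA4, had the intron region shown above and the 1801-bp one, where SOX17 went from 3.32 RPM at 8 h to 31.1 on day 4. Sox17 had a region 15.5 kb downstream (chr1:4473107-4475478) and one 39.3 kb upstream (chr1:4536608-4538990). At the upstream one GATA6 measured 0.817 RPM before Dox, 5.54, 14.5, 17.4, 23.3 and 37.9 RPM over the Dox course, with 61.1 RPM in XEN cells, higher at every step. SOX17 at its own locus there measured 1.71, 3.95, 13.4, 18.6 and 36.7 RPM over the Dox course and 34.8 RPM in XEN cells. OCT4 at the same place measured 2.34 RPM before Dox, 2.05, 2.80, 9.02, 12.3 and 14.6 RPM over the Dox course, with 4.80 RPM in XEN cells, and was thus highest at the end of the course.

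Receptors and ligands of the PrE came next. Pdgfra, the PDGF receptor used as a PrE marker, had 3 very wide regions within 13.7 kb upstream, and these did not move together. At the outer one (chr5:75136822-75138629) GATA6 measured 21.6, 27.4, 21.8, 20.8 and 22.7 RPM over the Dox course and 19.5 RPM in XEN cells, and at the middle one (chr5:75142815-75145699) 18.5, 25.5, 23.9, 24.7 and 35.2 RPM over the Dox course and 53.4 RPM in XEN cells. At the one closest to the gene (chr5:75145915-75148017) GATA6 measured 29.2, 29.4, 21.5, 22.7 and 8.32 RPM over the Dox course and 5.39 RPM in XEN cells, a decline, and OCT4 9.63 RPM before Dox, 12.6, 12.5, 23.9, 25.8 and 9.72 RPM over the Dox course, with 1.73 RPM in XEN cells. Cubn, the endocytic receptor cubilin, had a region 3.60 kb upstream where GATA6 measured 7.84, 10.7, 18.4, 27.3 and 33.0 RPM over the Dox course and 43.1 RPM in XEN cells. Stra6, a retinol transporter, had a Late region over a start site in its locus with GATA6 at 1.41 RPM at 8 h and 18.7 on day 4. Bmp2, a secreted ligand, had a Late region 22.2 kb downstream with 2.60 and 16.2 RPM. Both Late regions thus started low. The Fgfr2 annotation spans 2961 kb with 94 GATA6 regions, so that its 2 very wide regions are not tied to the FGF receptor by distance, and one of them (chr7:132249914-132251727) is also within Chst15.

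Basement membrane genes had 16 very wide regions, all Early&Constant and SOX17-bound, 13 of them with pluripotency TFs before Dox. The shares over all very wide regions were 79.7%, 89.6% and 71.0%. Median changes over the 16 were 0.54 for GATA6, 2.56 for SOX17, 1.09 for OCT4 and -0.22 for ESRRB. The 3 chains of laminin-111 were all among these genes. Lama1 had a region 10.7 kb upstream (chr17:67684408-67686583) where GATA6 measured 3.16, 6.99, 15.7, 20.2 and 35.0 RPM over the Dox course and 41.3 RPM in XEN cells, and another in an intron with a GATA6 change of 2.09. Lamb1 had 4 regions upstream, of which that at chr12:31227881-31230421 was among the 3 highest of all very wide regions for GATA6 per kb at 8 h and for OCT4 per kb at day 2. There GATA6 measured 62.2, 56.6, 35.2, 43.2 and 36.5 RPM over the Dox course and 43.3 RPM in XEN cells, and OCT4 28.3 RPM before Dox, 38.8, 39.2, 49.1, 57.6 and 32.6 RPM over the Dox course, with 4.0 RPM in XEN cells. GATA6 was thus kept at this site in XEN cells while OCT4 was not. The neighbour closest to Lamb1, 7.52 kb upstream, had 3.50 RPM of GATA6 at 8 h and 17.1 on day 4. Lamc1 had 4 regions, 2 in introns and 2 upstream, with GATA6 changes of 0.18, -1.04, 0.91 and -0.71.

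Col4a1 and Col4a2, which encode the chains of collagen IV and lie head to head, had 2 very wide regions within the Col4a1 gene, and both had less signal in XEN cells than on day 4. At chr8:11308478-11310403, SOX17 measured 4.12, 8.40, 33.2, 53.0 and 114 RPM over the Dox course and 16.8 RPM in XEN cells, with the day 4 value the highest SOX17 value of any very wide region. GATA6 there was 49.1 RPM on day 4 and 14.4 in XEN cells. At chr8:11265292-11267105 GATA6 was 16.1 RPM on day 4 and 3.49 in XEN cells, a log2 change of -2.15 that was among the 3 largest falls, and SOX17 was 19.7 and 0.877 RPM. Hspg2, the gene of perlecan, had a downstream region with a smaller fall, where SOX17 was 57.2 RPM on day 4 and 40.8 in XEN cells. Serpinh1 (a collagen chaperone) and Plod2 (a lysyl hydroxylase of collagen) had 1 region each, with GATA6 in XEN cells at 65.4 and 29.3 RPM. The strain of the XEN line is not that of the ES cells, and strain and cell type cannot be told apart in this comparison.

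Pluripotency genes had 9 very wide regions, with median changes of -0.77 for GATA6, 1.47 for SOX17, 0.30 for OCT4 and -0.91 for ESRRB. Klf4, a TF of naive pluripotency, had 2 regions that went opposite ways. The one 48.1 kb downstream (chr4:55476864-55479015) had GATA6 at 13 RPM at 8 h and 2.86 on day 4, OCT4 at 10.5 before Dox and 2.63 on day 4, and ESRRB at 11.9 and 1.56. The one 8.64 kb upstream (chr4:55541103-55543306), closed and free of pluripotency TFs before Dox, had GATA6 at 1.61 RPM at 8 h and 12.5 on day 4, and SOX17 at 1.16 and 10.5. In an intron of Tfcp2l1, another TF of naive cells, GATA6 was 26.7 RPM at 8 h and 6.62 on day 4, and ESRRB 18.9 before Dox and 2.30 on day 4. The region closest to Nanog lay 49.9 kb away in an intron of Slc2a3, a glucose transporter gene, with GATA6 at 24.6 RPM at 8 h and 13.2 on day 4. GATA6 was thus lower on day 4 than at 8 h at these sites, apart from the upstream Klf4 region. Sall4, a zinc-finger TF, had 2 regions, and at that in an intron GATA6 was 43.5 RPM at 8 h and 34.1 on day 4, with SOX17 at 8.26 and 53.0. The regions of Klf5, Dppa5a and Tet1 had GATA6 changes of -0.77, -0.16 and -0.78.

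**Figure D5:**
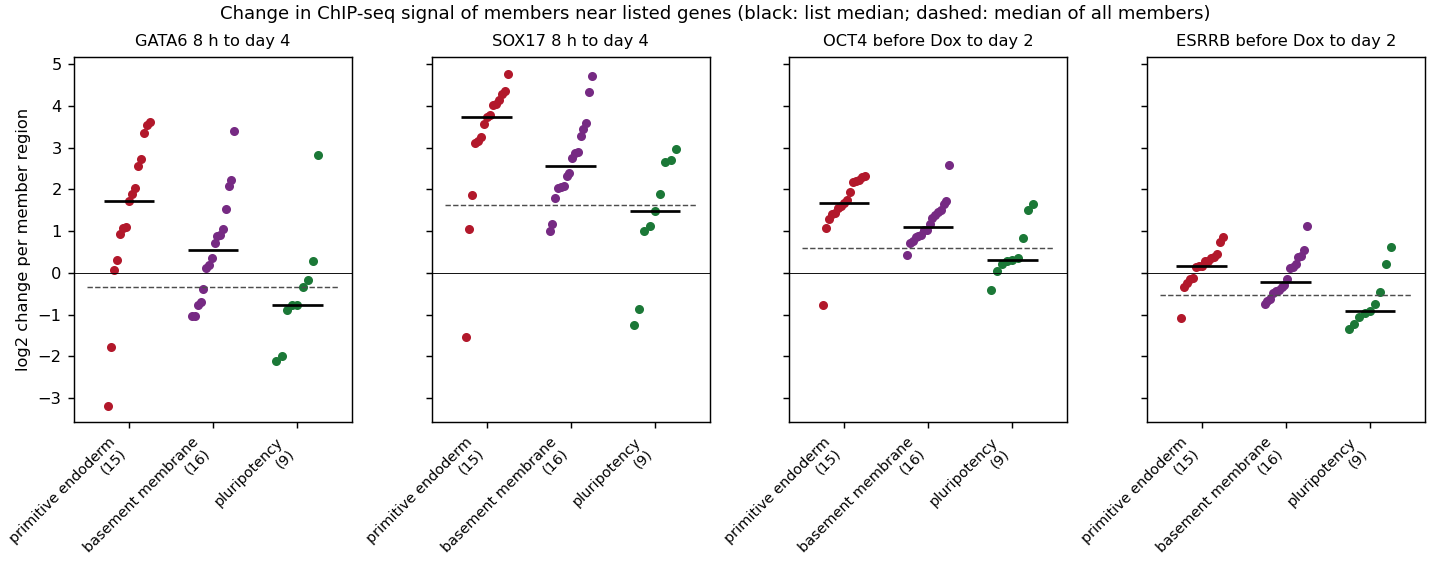
Log2 change of GATA6 and SOX17 from 8 h to day 4 and of OCT4 and ESRRB from before Dox to day 2 for each very wide region within 50 kb of a listed PrE gene (15 regions), basement membrane gene (16) or pluripotency gene (9). Black bars are list medians, for GATA6 1.72, 0.54 and -0.77, and the dashed line is the median of all 723 regions, -0.35 for GATA6.

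Of the other lists, Spry2, a feedback inhibitor of ERK signalling, had a region of 4045 bp 29.2 kb downstream (chr14:105858663-105862708) with GATA6 at 28.3, 27.6, 25.3, 29.2 and 26.8 RPM over the Dox course and 40.5 RPM in XEN cells. Gata2, a TF of the trophoblast, had one 2.52 kb upstream with GATA6 at 20.1 RPM at 8 h and 28.0 in XEN cells. A region upstream of Krt18 and Krt8, keratins of simple epithelia, had 16.9 RPM at 8 h and 19.5 on day 4. Col1a2, a collagen gene of fibroblasts, had 6.55 RPM at 8 h, 8.60 on day 4 and 25.4 in XEN cells.

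The 10 widest regions did not share a course, although all were Early&Constant and SOX17-bound and 8 had pluripotency TFs before Dox. Over all very wide regions these shares were 79.7%, 89.6% and 71.0%. The widest, of 5380 bp (chr3:101163217-101168597, 54.8 kb from the start of Ptgfrn), had GATA6 at 32.8, 26.4, 18.3, 16.6 and 11.9 RPM over the Dox course and 18.7 RPM in XEN cells. The next, of 5250 bp (chr14:72843659-72848909), had the highest GATA6 RPM at 8 h of all very wide regions, 75.2 RPM, or 14.3 RPM per kb, with 42.9 RPM on day 4 and 64.5 in XEN cells. A region of 4894 bp, 2.28 kb from the start of Calcoco2 (chr11:96112727-96117621), went from 63.5 RPM at 8 h to 8.20 on day 4. The region of 4404 bp with the most GATA6 matches, 28, lay 81.6 kb from the start of Tbx3, a T-box TF (chr5:119585655-119590059), and had 57.5 RPM at 8 h and 36.1 on day 4. These 4 were thus all lower at the end than at 8 h. In an intron of Sema6a, which encodes a semaphorin, a region of 4342 bp (chr18:47339897-47344239) with 22 matches went the other way, with GATA6 at 4.34, 9.88, 9.28, 8.79 and 33.3 RPM over the Dox course and 67.2 RPM in XEN cells. Near Rhof, a region of 4298 bp (chr5:123134464-123138762) was at 73.3 RPM at 8 h and 43.3 on day 4. The others of the 10, with Dkk1, Spry2, Paics and Nabp1 as the nearest starts, spanned 3738 to 4144 bp.

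Extreme changes marked the ends of the range. The largest GATA6 rise from 8 h to day 4, a log2 change of 4.51, was at a region 146 kb from the start of Maf (chr8:115560887-115562928), with 1.62, 17.3, 16.6, 15.8 and 40.9 RPM over the Dox course and 59.9 RPM in XEN cells. The largest fall, by 4.01, was at chr3:18580691-18582657, with 16.0, 10.1, 5.59, 3.34 and 0.818 RPM over the Dox course and 0.398 RPM in XEN cells. A region in an intron of Foxn3, a forkhead TF gene (chr12:99298744-99300703), was among the 3 highest for OCT4 per kb before Dox and fell by 3.94 in GATA6. OCT4 there measured 29.3 RPM before Dox, 42.5, 20.9, 17.1, 15.7 and 2.22 RPM over the Dox course, with 0.933 RPM in XEN cells, and GATA6 42.0, 24.4, 9.04, 7.46 and 2.56 RPM over the Dox course and 1.21 RPM in XEN cells. Both were low by day 4. GATA6 was already down to 9.04 RPM on day 1, while OCT4 was still at 15.7 RPM on day 2. The highest GATA6 value of any very wide region in XEN cells, 94.0 RPM, was in an intron of Clic6 (chr16:92491863-92494733), where it had been 5.93 at 8 h and 47.4 on day 4. In an intron of Slc7a6, an amino acid transporter gene (chr8:106171593-106174182), OCT4 was 3.76 RPM before Dox, 17.3 on day 2 and 51.6 on day 4, the highest OCT4 value of that day, beside SOX17 at 84.4. The rise to XEN cells was largest 60.9 kb from the start of Rfx3 (chr19:28071453-28074134), from 4.42 RPM on day 4 to 44.3. The 3 regions with the highest input per kb before Dox held the start sites of Cdh1, Map4 and Lmna or another start close to them, and GATA6 at 8 h was 7.19, 7.08 and 7.13 RPM there.

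Knock-down of Oct4 during induction addressed whether binding of GATA6 and SOX17 depends on OCT4. On very wide regions GATA6 was at a median of 7.18 RPM per kb with control siRNA and 7.17 with Oct4 siRNA. A log2 change of 0.5 or more was seen upwards in 74 regions (10.2%, against 21.9% of all regions) and downwards in 115 (15.9%, against 21.2%), with a median of -0.07. A pseudocount 10 times larger turned the order of the downward shares, from a ratio of 0.751 to 1.76, so that which set loses GATA6 more often cannot be read from these counts. SOX17 was higher in 439 (60.7% against 51.4%) and lower in 5 (0.692% against 3.95%), but all regions together had a median change of 0.52, and very wide regions 0.62. Relative to that shift the ratio of upward shares turned from 1.18 to 0.814. Depth, resolved for each of the 2 libraries behind a column, was 23.1 and 31.1 M reads for GATA6 with control siRNA and 10.1 and 27.6 M with Oct4 siRNA.

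Medians after the knock-down differed between the deposited classes. Those of very wide regions were of the same sign as those of their class in each GATA6 dynamics class. In the 576 Early&Constant regions the median GATA6 change was -0.04, against -0.06 over the class. GATA6 was lower in 71 of them (12.3%, against 19.4%) and higher in 48 (8.33%, against 12.3%). In the 106 Transient regions GATA6 was lower in 44 (41.5%, against 36.3% of all Transient regions) and higher in 0 (against 5.67%), with a median of -0.43 against -0.31. In the 41 Late regions it was higher in 26 (63.4%, against 48.6% of all Late regions) and lower in 0 (against 5.43%), with a median of 0.74 against 0.48. The 513 regions with pluripotency TFs before Dox had a median GATA6 change of -0.17 against -0.29 over the class. Of them 112 were lower (21.8%, against 35.7%) and 23 higher (4.48%, against 6.57%). In the ectopic class the signs were opposite, with a median of 0.15 in the 170 very wide regions and -0.09 over all 7038 regions of the class. GATA6 was lower in 1 of the 170 (0.588%, against 24.7% of the class) and higher in 38 (22.4%, against 12.7%). All these shares rest on the main pseudocount. Larger or smaller ones were not tried by class, so that the order of shares within a class may depend on it. The largest fall was in an intron of Ift52 (chr2:163031224-163033249), from 3.39 to 1.05 RPM, and the largest rise in an intron of Lipc, the gene of hepatic lipase (chr9:70888800-70890697), from 1.12 to 3.65 RPM. All 4 of these values are low for a very wide region. Near listed genes, GATA6 went from 35.2 to 18.3 RPM at the Pdgfra region closest to the gene and from 87.7 to 58.9 RPM at the Lamb1 region described above. It went from 8.89 to 20.6 RPM at Stra6 and from 9.22 to 19.8 RPM at Bmp2.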

How the data were processed

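Per the methods, the authors trimmed reads with cutadapt, aligned them to mm10 with Bowtie2, removed duplicates by molecular identifiers, called GATA6 peaks against input with MACS2, counted reads per region and scaled them to library size. The deposited values are therefore RPM, with 1 pooled column per condition. How peaks of different time points were joined into a region is not given in the sources used here. Motif match counts and the best motif score per region were deposited by the authors, who scanned regions with FIMO. The deposited classes were taken as given. Of the table's 105 columns, 14 per-sample columns of accessibility and histone marks, and the authors' own outcome of the Oct4 knock-down, were not used.

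RPM was divided by width in kb. Changes were log2((RPM + pseudocount) / (RPM + pseudocount)), where the pseudocount was the value that 5 percent of an assay's values lie below. Medians and shares of the very wide regions were set beside those of all 42403 regions. Shares have Wilson 95% intervals, which describe counting over regions and not cultures, and neighbouring regions are not independent. Genes came from GENCODE M21 and sequence from the RefSeq copy of mm10, both read with Python 3.11.15, pandas 2.3.3, numpy 2.4.6 and scipy 1.17.1. Scripts were tested on simulated data. Regions named are the 10 widest, the 3 on either side of the limit, the 3 most extreme in each level or change, and those within 50 kb of a listed gene; only some are described. The regions and gene lists were chosen with earlier results of these data known. RNA-seq, ATAC-seq and MNase-seq were not analysed here. The values of 1 listed gene are not reported here.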

Additional observations from a re-analysis of the deposited data

How the results depend on the processing

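No paired analysis was possible because the replicates of a condition share a pooled column. For the same reason no replicate was left out, and no value has a spread between cultures. Values are very wide regions over the reference set, and 35 of 93 alternatives over 19 results kept their direction and stayed within the counting interval. Low signals are limited by depth.

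Against regions of 1200 to under 1800 bp the ratios per kb were 0.990 for GATA6 before Dox (0.904 against all regions), 1.13 for GATA6 at 8 h (1.99), 1.45 for SOX17 at day 4 (2.30), 1.18 for OCT4 before Dox (1.92) and 1.05 for input (1.02). Those of changes were 0.861 for GATA6 lower, a turn in direction (1.05), 1.16 for SOX17 higher (1.43), 1.16 for OCT4 higher (2.07) and 1.09 for ESRRB lower (1.91). Those of classes were 1.22 for Early&Constant (2.84), 1.17 for SOX17-bound (2.01), 1.31 for pluripotency TFs before Dox (3.40) and 0.871 for closed chromatin (0.647). Against narrower Early&Constant regions the ratios per kb were 0.995, 1.63, 1.42, 1.73 and 1.11 in the order above. In RPM they were 3.33 (turned), 9.30, 9.84, 7.90 and 4.31.

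With means, ratios were 0.822 for GATA6 before Dox, 1.78 for SOX17, 1.52 for OCT4 and 0.966 for input (turned). With input subtracted they were 2.30 for GATA6 at 8 h, 3.06 for SOX17 and 3.84 for OCT4. With the lowest value subtracted, chosen after seeing the data, they were 1.29 for GATA6 before Dox (turned), 2.10 for OCT4 and 1.29 for input. A limit of 1500 bp gave 2.07 for SOX17, 1.77 for OCT4, 0.990 for input (turned), 2.69 for Early&Constant, 1.92 for SOX17-bound and 3.11 for pluripotency TFs before Dox. A limit of 2200 bp gave 2.20 for GATA6 at 8 h, 0.980 for GATA6 lower (turned), 0.622 for GATA6 lower after the knock-down (0.751), 3.05 for Early&Constant and 0.584 for closed chromatin.

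A pseudocount 10 times larger gave 2.27 for GATA6 lower, 2.90 for SOX17 higher, 6.03 for OCT4 higher, 4.80 for ESRRB lower and, after the knock-down, 1.76 for GATA6 lower (turned) and 2.57 for SOX17 higher (1.18). One 10 times smaller gave 1.29 for SOX17 higher, 1.57 for OCT4 higher, 1.29 for ESRRB lower and 1.08 for SOX17 higher after the knock-down. Relative to the median change of all regions, SOX17 higher was at 1.79, ESRRB lower at 1.51 and SOX17 higher after the knock-down at 0.814 (turned). GATA6 matches per region gave 3.06 in place of 0.853 per kb (turned). The shares of listed genes near very wide regions stayed within their intervals. Apart from what each alternative changes by construction, the cause was not tested.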
